A study of Homo sapiens with 4 samples.

Results

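The genes described here are FOLH1, STEAP1, STEAP2, PSCA, CD276, DPP4, DLL3, CEACAM5 and CD46. They encode 9 cell-surface proteins listed as targets, in use or proposed, for prostate cancer therapy. They were chosen by name, and 8 of the 9 had a row among the 22637 genes of the count table. CEACAM5, which encodes carcinoembryonic antigen, was not analysed here. RNA-seq was performed on 4 human prostate adenocarcinoma lines with 1 library each. LNCaP is a castration-sensitive, androgen-responsive line, and LN-OlapR is its olaparib-resistant subline. C4-2B, which came from LNCaP, is castration-resistant, and 2B-OlapR is the olaparib-resistant subline of C4-2B. Olaparib inhibits the DNA repair enzymes PARP1 and PARP2, and the resistant sublines came from parental cells kept in the drug at rising concentrations for 1 year. Per the deposited description, all 4 lines were untreated and were plated for 48 hours without a selection agent before RNA was isolated, whereas the paper's methods give a longer time. The methods also state that the resistant lines were maintained in medium with olaparib. They do not say outright whether the drug was in the medium while cells were plated for RNA. Each line stands for a single culture, and the sources used here do not say whether the resistant sublines are clones.

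Surface proteins serve as therapy targets when tumor cells carry far more of them than most normal tissues do, so that a radioligand, an antibody-drug conjugate, a T-cell engager or a chimeric antigen receptor can find the tumor. In prostate adenocarcinoma, FOLH1 and the STEAP proteins belong to the luminal, androgen receptor-driven program, while DLL3 is known for tumors that have taken on a neuroendocrine state. The values below are RNA levels. They do not measure protein at the cell surface, and in bulk RNA fewer cells of a type and less RNA per cell cannot be told apart.

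Library totals ranged from 19950537 to 26394267 counts. Levels are given as normalized CPM, counts scaled to a common effective library size by the TMM method, and as normalized CPM per kb of exon where different genes are set side by side. With 1 library per line, differences within a background have no replicate check and were not tested, and the 95% intervals cover counting error only. Resistant and parental lines were also compared over both backgrounds together, which leaves 1 residual degree of freedom. The prostate luminal markers were present in all libraries, with a summed level of 3244 to 6532 normalized CPM over 9 of 9 genes. KLK3, the gene for prostate-specific antigen, had 53.1 normalized CPM in the LNCaP library and 1870 to 2685 in the other 3, so the LNCaP library stood apart in this marker of androgen response. Of the other luminal markers, KLK2 had 126.4 normalized CPM in LNCaP and 747.6 in LN-OlapR, and TMPRSS2 had 199.6 and 485.3. Of the 5 neuroendocrine markers 3 had a row, with a summed level of 7.13 to 16.7, and CHGA and INSM1 were not analysed here. Basal markers summed to at most 0.557 normalized CPM, fibroblast markers to at most 16.3 and leukocyte markers to at most 5.14, with 1 of 3, 2 of 5 and 1 of 4 genes measured. CD68 was the leukocyte gene measured and PTPRC was not analysed here.

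The surface target transcripts were led by FOLH1, STEAP1 and STEAP2 in all 4 libraries. Per kb of exon, FOLH1 was highest in each library, STEAP1 second and STEAP2 the third, and no neighbouring intervals among these overlapped. In LNCaP the order went on with CD276, CD46, DLL3, PSCA and DPP4, from 27.2 normalized CPM per kb for CD276 down to 0.676 for DPP4. LN-OlapR held the same order. In C4-2B, DPP4 took rank 4 with 32.0 normalized CPM per kb, just above CD276 with 27.3, and PSCA rank 6. At the bottom of that order, CD46 and DLL3 had overlapping intervals, 9.49 to 10.4 and 8.02 to 9.60. In 2B-OlapR, DPP4 again stood at rank 4, and the lowest places were taken by DLL3 and PSCA, whose intervals overlapped. When the longest transcript was used as the length in place of merged exons, a choice made after seeing the data, CD276 moved above DPP4 in C4-2B, and PSCA moved from rank 8 to rank 6 in 2B-OlapR.

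**Figure D1:**
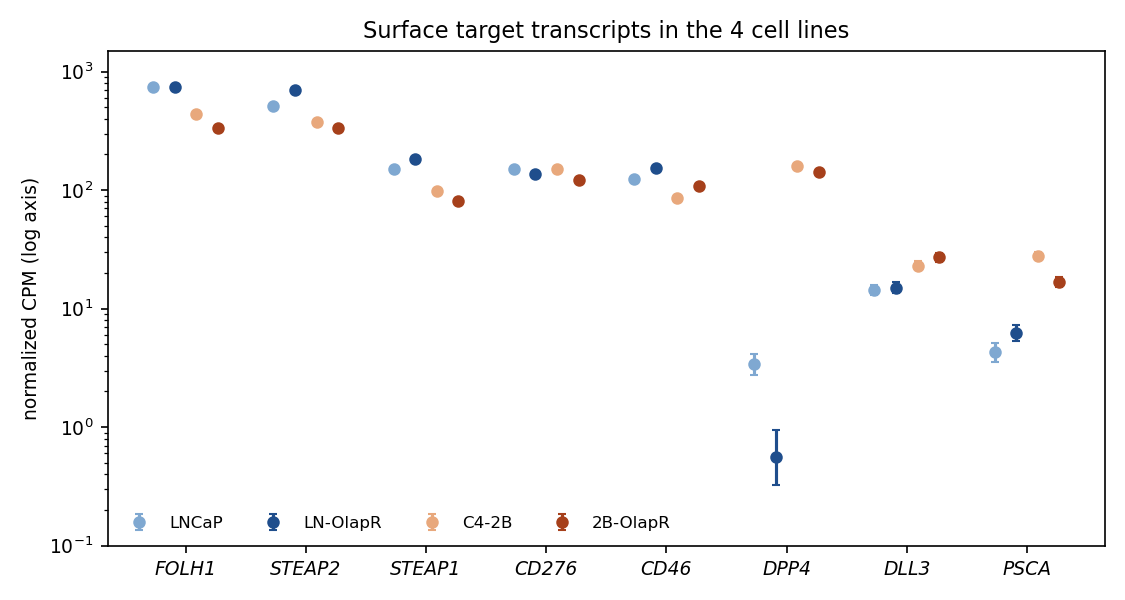
Normalized CPM (log axis) of the 8 surface target genes in the LNCaP, LN-OlapR, C4-2B and 2B-OlapR libraries; points are single libraries and bars are 95% Wilson intervals of the counts. DPP4 spans 0.557 to 160.2 normalized CPM, while CD276 stays between 122.1 and 151.3.

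Together FOLH1, STEAP1 and STEAP2 made up 87.3% of the summed length-scaled level of the 8 genes in LNCaP and 88.1% in LN-OlapR. Their share was 69.9% in C4-2B and 68.0% in 2B-OlapR. The sum itself was 394.1 normalized CPM per kb in LNCaP and 435.7 in LN-OlapR, against 311.7 in C4-2B and 258.4 in 2B-OlapR. DPP4 alone held 10.3% of the sum in C4-2B and 11.0% in 2B-OlapR, against 0.171% in LNCaP and 0.0255% in LN-OlapR.

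**Figure D2:**
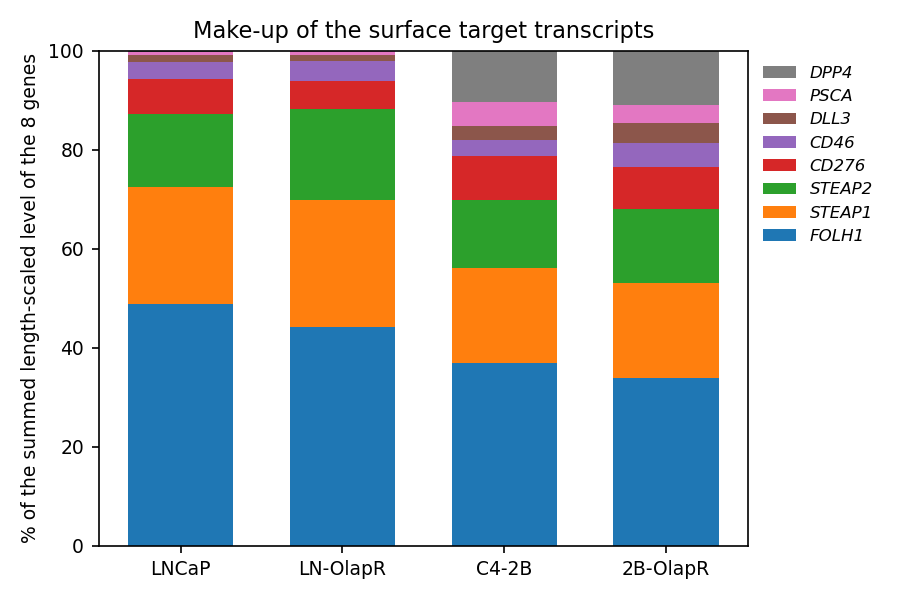
Share (%) of each of the 8 genes in their summed normalized CPM per kb of exon, 1 stacked bar per library. FOLH1 takes 48.8% of the bar in LNCaP and 33.8% in 2B-OlapR, and DPP4 is visible in the C4-2B and 2B-OlapR bars only.

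FOLH1 encodes prostate-specific membrane antigen (PSMA), a membrane-bound carboxypeptidase that releases glutamate from folate and from a neuropeptide, and the target of PSMA imaging and radioligand therapy. It is listed as ENSG00000086205.18 and lies on the minus strand of chromosome 11 from 49146635 to 49208670 in GENCODE release 29 on GRCh38, the build named in the submitters' processing notes. Its counts were 19753 in LNCaP and 17138 in LN-OlapR, against 8979 in C4-2B and 6919 in 2B-OlapR, which correspond to 734.8, 734.7, 438.8 and 333.9 normalized CPM. With TMM scaling the level was equal in LNCaP and LN-OlapR within counting error, and lower in both lines of the C4-2B background. The log2 ratio of LN-OlapR to LNCaP was -0.0001 (95% interval -0.03 to 0.03), and its sign changed with the scaling. Scaled by total counts it was -0.084, outside that interval. That of 2B-OlapR to C4-2B was -0.39 (-0.44 to -0.35), and that of C4-2B to LNCaP was -0.74 (-0.78 to -0.71). Even in 2B-OlapR, where it was lowest, FOLH1 stood above 97.5% of all genes per kb.

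FOLH1 shares sequence with FOLH1B, a related pseudogene on the same chromosome. Of the 50-base stretches in FOLH1 transcripts, 28.1% were also found in FOLH1B transcripts of GENCODE release 29, so reads could be divided between them. The table lists FOLH1B under 2 identifiers. The entry ENSG00000134612.13 had 155 counts in LNCaP and 113 in LN-OlapR, against 91 in C4-2B and 34 in 2B-OlapR. The other, ENSG00000290503.1, had 87, 39, 24 and 82 counts. The entries went opposite ways between C4-2B and 2B-OlapR, with log2 ratios of -1.43 and 1.73.

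STEAP1 and STEAP2 encode multi-pass membrane proteins. STEAP2 is a metalloreductase that reduces iron and copper, while STEAP1, which lacks the reductase domain of its relatives, is targeted by antibody-drug conjugates and T-cell engagers. The genes are neighbours on the plus strand of chromosome 7, STEAP1 (ENSG00000164647.9) from 90154375 to 90164829 and STEAP2 (ENSG00000157214.14) from 90167590 to 90238137. STEAP1 had 4089 counts in LNCaP and 4241 in LN-OlapR, against 2003 in C4-2B and 1680 in 2B-OlapR, or 152.1, 181.8, 97.9 and 81.1 normalized CPM. STEAP2 had 13669, 16266, 7668 and 6959 counts in the same order, or 508.5, 697.3, 374.7 and 335.8 normalized CPM. Both genes were highest in LN-OlapR and lowest in 2B-OlapR. In the LN background the log2 ratio of resistant to parental line was 0.26 (0.20 to 0.32) for STEAP1 and 0.46 (0.42 to 0.49) for STEAP2. In the C4-2B background it was -0.27 (-0.37 to -0.18) for STEAP1 and -0.16 (-0.20 to -0.11) for STEAP2. Per kb of exon, STEAP2 was at 0.623 times the STEAP1 level in LNCaP (0.602 to 0.645) and at 0.772 times in 2B-OlapR (0.732 to 0.815), with 0.715 in LN-OlapR and 0.714 in C4-2B.

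STEAP1 has a copy on the same chromosome, STEAP1B, and the 250 bases before the RefSeq start of each gene show how alike they are. Capitals mark the 6 positions at which the windows differ, and 97.6% of positions are identical. The window of STEAP1 is on the plus strand (chr7:90154219-90154468) and that of STEAP1B on the minus strand (chr7:22500189-22500438), both in GRCh38.p14 and written 5′ to 3′.
STEAP1: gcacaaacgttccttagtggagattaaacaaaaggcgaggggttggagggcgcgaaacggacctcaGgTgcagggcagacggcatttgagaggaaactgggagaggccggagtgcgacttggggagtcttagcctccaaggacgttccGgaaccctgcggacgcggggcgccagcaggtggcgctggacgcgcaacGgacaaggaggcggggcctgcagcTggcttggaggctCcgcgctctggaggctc
STEAP1B: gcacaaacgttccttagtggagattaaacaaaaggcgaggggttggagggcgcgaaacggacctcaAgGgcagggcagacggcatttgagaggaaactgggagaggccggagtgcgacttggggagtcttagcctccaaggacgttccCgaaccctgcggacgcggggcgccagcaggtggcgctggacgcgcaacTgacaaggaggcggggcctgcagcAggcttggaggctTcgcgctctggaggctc
STEAP1B transcripts held 21.4% of the 50-base stretches of STEAP1. STEAP1B had 43 counts in LNCaP and 38 in LN-OlapR, against 33 in C4-2B and 20 in 2B-OlapR, or 1.60, 1.63, 1.61 and 0.965 normalized CPM. The antisense gene STEAP2-AS1 had 2 to 7 counts, and in GENCODE release 29 its exons did not overlap those of STEAP1 or STEAP2.

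The window before the first RefSeq start of STEAP2 (chr7:90211490-90211739, plus strand, GRCh38.p14) is shown with its GC box in capitals, the motif GGGCGG on either strand, which 42.6% of all 35116 RefSeq windows of this length hold.
STEAP2: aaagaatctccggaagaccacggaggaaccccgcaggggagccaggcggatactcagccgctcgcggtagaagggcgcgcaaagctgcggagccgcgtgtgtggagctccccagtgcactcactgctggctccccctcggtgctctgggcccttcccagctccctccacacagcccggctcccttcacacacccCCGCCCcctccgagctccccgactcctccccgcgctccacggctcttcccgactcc
This STEAP2 window lies inside the GENCODE span of the gene given above, and the STEAP1 window runs past the GENCODE start of STEAP1. A second RefSeq window of STEAP2 (chr7:90213570-90213819) held no GC box, and 32.8% of its bases are G or C. The STEAP1 window held no GC box. The letters AGAACA, a half-site of the androgen receptor motif, were found in 12.4% of all windows and in no window of STEAP1 or STEAP2. A match describes the letters in this window only.

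DPP4 showed the widest range of the 8 genes. It encodes CD26, a serine protease on the cell surface that trims short N-terminal pieces from peptides such as incretin hormones, and it is listed as ENSG00000197635.11. It had 91 counts in LNCaP and 13 in LN-OlapR, against 3279 in C4-2B and 2941 in 2B-OlapR. The levels were 3.39 normalized CPM (95% Wilson interval 2.76 to 4.16), 0.557 (0.326 to 0.954), 160.2 (154.9 to 165.8) and 141.9 (136.9 to 147.2). The lines thus fell into a background with almost no DPP4 RNA and one in which DPP4 lay above 91.0% of all genes per kb or more. C4-2B exceeded LNCaP by 5.56 on the log2 scale (5.26 to 5.86), or 47.1-fold, which ranked 94 from the top of 15580 genes. Without the LNCaP library, 2B-OlapR exceeded LN-OlapR by 7.94 (7.17 to 8.71). The log2 ratio of LN-OlapR to LNCaP was -2.56 (-3.38 to -1.73), rank 146 from the bottom of 15373 genes. Between C4-2B and 2B-OlapR the log2 ratio was -0.17 (-0.25 to -0.10), and 68.4% of 15527 genes lay at least as far from 0. DPP4 was therefore lower in the resistant than in the parental line of both backgrounds, from starting levels that were far apart.

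The 250 bases before the RefSeq start of DPP4 lie on the minus strand of chromosome 2 (chr2:162074216-162074465, GRCh38.p14) and are shown because a noncoding RNA gene on the other strand, DPP4-DT, lies beside or across them: its RefSeq start is upstream of the window, while GENCODE release 29 has it overlap DPP4. The window lies inside the GENCODE span of DPP4, which runs from 161992241 to 162074542. Capitals mark 2 GC boxes, and 73.6% of the bases are G or C, against a median of 58.0% over all windows.
DPP4: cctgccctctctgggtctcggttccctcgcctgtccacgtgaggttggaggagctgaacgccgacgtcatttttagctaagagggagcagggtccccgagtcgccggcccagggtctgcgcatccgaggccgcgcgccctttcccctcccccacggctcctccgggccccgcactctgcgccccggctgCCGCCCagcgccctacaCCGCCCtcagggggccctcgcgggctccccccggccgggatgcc
DPP4-DT (ENSG00000230918.3) had 1 count in LNCaP and 1 in LN-OlapR, against 169 in C4-2B and 147 in 2B-OlapR. Like DPP4, it was near 0 in the LN background and present in the C4-2B background, where its reads were 4.90% (4.23 to 5.67) and 4.76% (4.06 to 5.57) of the summed reads of both genes. The log2 ratio of C4-2B to LNCaP was 7.21 (4.89 to 9.53), resting on 1 count in LNCaP. In GENCODE release 29 the genes share 172 bases of exon on opposite strands, and the sources used here do not say whether counting used the strand, so DPP4-DT is not an independent reading of DPP4. The nearby relative FAP had 0 counts in LNCaP, LN-OlapR and C4-2B and 11 in 2B-OlapR, which is at least 3.62-fold higher than in C4-2B when 0 is read as up to 3 counts. No 50-base stretch of DPP4 was found in the transcripts of another gene.

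PSCA, prostate stem cell antigen, is a small protein of the LY6 family held in the membrane by a lipid anchor, and a target of engineered T cells. It is listed as ENSG00000167653.5. Its counts were 115 in LNCaP and 145 in LN-OlapR, against 567 in C4-2B and 348 in 2B-OlapR, or 4.28, 6.22, 27.7 and 16.8 normalized CPM. Both libraries of the C4-2B background were above both libraries of the LN background. C4-2B was 6.45-fold above LNCaP, a log2 ratio of 2.69 (2.40 to 2.98), and 2B-OlapR was above LN-OlapR by 1.43 (1.15 to 1.71). Against its parental line, LN-OlapR was higher by 0.54 on the log2 scale (0.19 to 0.89), and 2B-OlapR had a log2 ratio of -0.72 (-0.91 to -0.53). The exons of PSCA overlap by 368 bases with those of JRK, a gene on the opposite strand that had 1214 to 1428 counts. If the counting ignored strand, some PSCA counts could belong to JRK, and the sources do not settle this.

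CD276 and CD46 are expressed on many cell types. CD276 encodes B7-H3, an immune checkpoint protein of the B7 family and an antibody-drug conjugate target, while CD46 encodes a regulator that protects cells from complement. CD276 (ENSG00000103855.18, chromosome 15 from 73683966 to 73714518) varied least of the 8 genes, 1.24-fold between its highest and lowest library. It had 150.6 normalized CPM in LNCaP and 137.1 in LN-OlapR, against 151.3 in C4-2B and 122.1 in 2B-OlapR, from 4049, 3197, 3096 and 2530 counts. LNCaP and C4-2B did not differ beyond counting error, with a log2 ratio of 0.01 (-0.06 to 0.07), and both resistant lines were slightly below their parental lines, by -0.14 (-0.20 to -0.07) for LN-OlapR and -0.31 (-0.39 to -0.23) for 2B-OlapR. CD46 (ENSG00000117335.21, chromosome 1 from 207752057 to 207795513) went the other way in both backgrounds. It had 124.2 normalized CPM in LNCaP and 152.6 in LN-OlapR, against 86.5 in C4-2B and 108.2 in 2B-OlapR, from 3340, 3560, 1771 and 2242 counts. The log2 ratio of resistant to parental line was 0.30 (0.23 to 0.36) in the LN background and 0.32 (0.23 to 0.41) in the C4-2B background, and the difference between them was 0.03 (-0.09 to 0.14).

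DLL3 encodes an inhibitory Notch ligand that is retained mostly inside normal cells and reaches the surface of neuroendocrine tumors. It is listed as ENSG00000090932.11 and lies on chromosome 19 from 39498895 to 39508481. Its counts were 386 in LNCaP and 351 in LN-OlapR, against 470 in C4-2B and 560 in 2B-OlapR, or 14.4, 15.0, 23.0 and 27.0 normalized CPM. LNCaP and LN-OlapR did not differ beyond counting error, with a log2 ratio of 0.07 (-0.14 to 0.28). 2B-OlapR was above C4-2B by 0.23 (0.06 to 0.41). C4-2B was above LNCaP by 0.68 on the log2 scale (0.48 to 0.87), and 2B-OlapR above LN-OlapR by 0.84 (0.65 to 1.04).

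Notch signaling passes between neighbouring cells: a ligand on one cell binds a Notch receptor on the next, whose intracellular part is cut free and switches on genes of the HES and HEY families. Of 20 listed genes besides DLL3, 2 of them neuroendocrine factors, 14 were analysed in each background. In the LN background 2 of 14 were at least 2-fold higher in the resistant line and 0 of 14 lower, against 4.64% and 4.83% of all genes, with a median log2 ratio of 0.32 against -0.004 for all genes. In the C4-2B background 2 of 14 were higher and 2 of 14 lower, against 4.42% and 5.65%, with a median of -0.30 against -0.0003. HES1, a direct Notch target, was at 5.58 normalized CPM in LNCaP and 30.3 in LN-OlapR, against 24.0 in C4-2B and 69.7 in 2B-OlapR, a log2 ratio of 2.44 in the LN background and 1.54 in the C4-2B background. LFNG, a glycosyltransferase that modifies Notch receptors, was at 29.1 normalized CPM in C4-2B, against 8.16 in 2B-OlapR. HES6, a HES family member that opposes HES1, had the highest level of the list in sum, from 84.9 to 215.4 normalized CPM.

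Of the surface target genes 1, DPP4, passed a 2-fold difference between a resistant line and its parental line. In the LN background 0 of 8 were at least 2-fold higher and 1 of 8, DPP4, at least 2-fold lower, where 4.64% and 4.83% of the 15373 genes analysed were. In the C4-2B background 0 of 8 were higher and 0 of 8 lower, against 4.42% and 5.65% of 15527 genes. The median log2 ratio of the 8 genes was 0.16 in the LN background and -0.22 in the C4-2B background, and that of all genes was -0.004 and -0.0003. The difference between the parental lines reached further. In C4-2B 2 of 8 genes, DPP4 and PSCA, were at least 2-fold above LNCaP and 0 of 8 below, against 8% and 7.18% of 15580 genes. Between the resistant lines, 2B-OlapR was at least 2-fold above LN-OlapR for DPP4 and PSCA, 2 of 8, and at least 2-fold below it for FOLH1, STEAP1 and STEAP2, 3 of 8, against 8.93% and 9.45% of 15539 genes. The log2 ratios of these 3 were -1.14 for FOLH1, -1.16 for STEAP1 and -1.05 for STEAP2, all close to the 2-fold limit. The comparison of the parental lines shares the LNCaP library with the LN background and the C4-2B library with the C4-2B background, so its values are not independent of theirs. That of the resistant lines likewise shares the LN-OlapR and 2B-OlapR libraries, and its log2 ratios follow from those of the other comparisons.

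**Figure D3:**
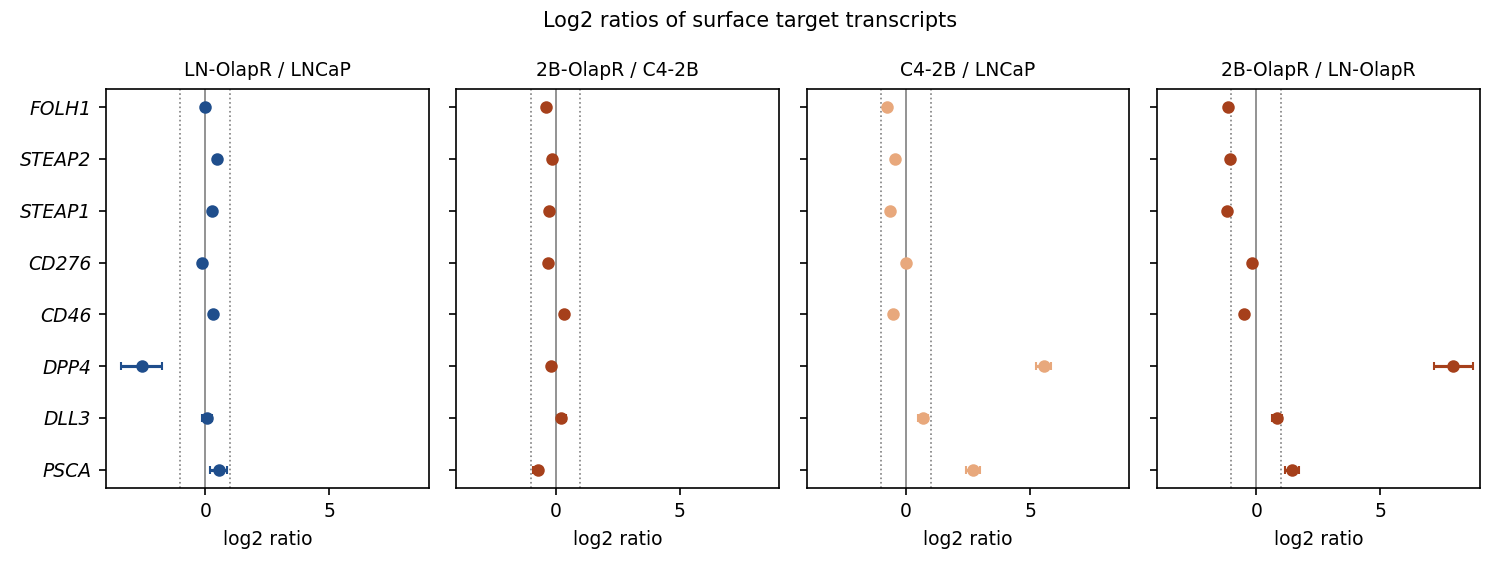
Log2 ratios of the 8 genes in the 4 comparisons named above each panel, with 95% intervals from the counts; dotted lines mark a 2-fold difference. DPP4 lies at -2.56 in LN-OlapR against LNCaP and at 5.56 in C4-2B against LNCaP, and the other genes lie within 2-fold in both comparisons of resistant and parental lines.

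None of the 8 genes passed a test of resistant against parental lines over both backgrounds, fitted with background as a term by edgeR's quasi-likelihood test. CD46 came nearest, with a fitted log2 difference of 0.31 and an adjusted p of 0.681, and was higher in the resistant line of both backgrounds. DPP4 had -0.97 and an adjusted p of 0.701, and the other 6 had adjusted p-values of 0.746 to 0.996. Of the 15645 genes tested 0% passed an adjusted p of 0.05, and 1279 had an unadjusted p below it, while DESeq2 called 78 higher and 86 lower, none of the 8 genes among them. The error term of this test is the difference in response between the backgrounds, not the spread of repeat cultures.

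The 2 comparisons of resistant and parental lines share no library, and their log2 ratios can be set against each other. For 6 of the 8 genes the ratios of the C4-2B and LN backgrounds differed beyond counting error, as did those of 59.4% of the 14602 genes analysed in both, so such a difference was common at this depth. DPP4 differed most, by 2.38 (1.55 to 3.21), as its ratio lay further below 0 in the LN background. PSCA differed by -1.26 (-1.66 to -0.86), STEAP2 by -0.61 (-0.67 to -0.56), STEAP1 by -0.53 (-0.64 to -0.42), FOLH1 by -0.39 (-0.45 to -0.34) and CD276 by -0.17 (-0.27 to -0.07). The interval included 0 for CD46 and for DLL3, which had 0.17 (-0.11 to 0.44). Of all these genes, 2.57% differed by as much as DPP4 or more, and 8.95% by as much as PSCA or more.

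The relatives of the surface targets were looked up in a list of 37 genes, of which 14 were analysed in the LN background and 15 in the C4-2B background. In the LN background 1 was at least 2-fold higher in the resistant line and 2 lower, where 4.64% and 4.83% of all genes were, and the median log2 ratio was -0.14 against -0.004 for all genes. In the C4-2B background 1 was higher and 2 lower, where 4.42% and 5.65% of all genes were, and the median was -0.52 against -0.0003. LY6E, an interferon-inducible relative of PSCA, had the highest level of the list when summed over the libraries and followed PSCA in its order of levels, from 1997 counts for LNCaP and 3088 for LN-OlapR to 4996 for C4-2B and 3109 for 2B-OlapR. The other dipeptidyl peptidases analysed, DPP8 and DPP9, both intracellular, stayed at 36.7 to 48.0 and 88.6 to 125.4 normalized CPM, with nothing like the range of DPP4. STEAP3, a ferrireductase, was at 37.1 normalized CPM in LNCaP and 36.7 in LN-OlapR, against 58.9 in C4-2B and 61.2 in 2B-OlapR. The LN background was lower, the reverse of STEAP1 and STEAP2.

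Other antigens under study as therapy targets were compared in a list of 32 genes. In the LN background 18 were analysed, of which 0 were at least 2-fold higher in the resistant line and 2 lower, against 4.64% and 4.83% of all genes, with a median log2 ratio of -0.29 against -0.004. Among the 19 analysed in the C4-2B background 2 were higher and 3 lower, against 4.42% and 5.65% of all genes, with a median of -0.19 against -0.0003. TMEFF2, a prostate-enriched transmembrane protein, was at 67.4 normalized CPM in LNCaP from 1811 counts and had 21 counts in LN-OlapR, against 3 in C4-2B and 0 in 2B-OlapR. ALCAM, an adhesion molecule, had 21.9 normalized CPM in LNCaP and 9.17 in LN-OlapR, against 70.1 in C4-2B and 76.2 in 2B-OlapR, and so shared with DPP4 a lower level in LN-OlapR and a higher one in the C4-2B background. Between C4-2B and 2B-OlapR, EGFR, the epidermal growth factor receptor, went from 195.6 to 474.2 normalized CPM, ROR1, a receptor tyrosine kinase, from 8.21 to 17.8, and PTK7, a pseudokinase, from 39.1 to 5.07. The highest of the list in sum was TFRC, the transferrin receptor, with 415.7 to 524.4 normalized CPM.

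**Figure D4:**
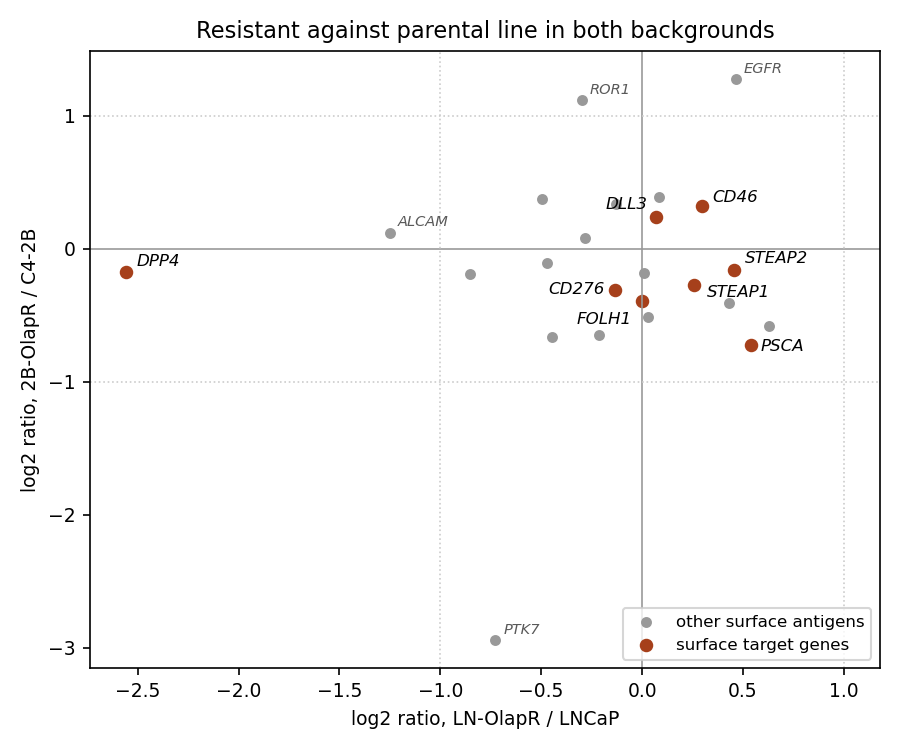
Log2 ratio of LN-OlapR to LNCaP (x axis) against that of 2B-OlapR to C4-2B (y axis) for the 8 surface target genes and the 16 other surface antigens analysed in both backgrounds; dotted lines mark a 2-fold difference. DPP4 stands to the left at -2.56, and PSCA, STEAP1 and STEAP2 lie right of 0 and below 0.

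Genes whose levels over the 4 libraries were most like those of a surface target were found by the distance between centred log2 levels, over the 10136 genes that averaged 10 normalized CPM or more. SOHLH2, a transcription factor of germ cells, lay closest to DPP4 at a distance of 0.396, with 0.409 normalized CPM in LNCaP and 0.0857 in LN-OlapR, against 25.7 in C4-2B and 21.9 in 2B-OlapR, the LN-OlapR value being under 3 counts, and CNNM1 and GRIN2C came next. These 3 genes reached the minimum through the C4-2B background alone. For PSCA, FGFR3, a fibroblast growth factor receptor, was closest at 0.398, with 3.65, 6.60, 21.3 and 12.5 normalized CPM, followed by NIBAN1 and ADGRB2. FGFR3, NIBAN1 and ADGRB2 were also below 10 normalized CPM in both LN libraries and reached the minimum through the C4-2B background alone. MGA, RPRD1A and FAM86C2P were closest to FOLH1, SGO2, ZNF678 and SCAF11 to STEAP1, and TBL1XR1, EMC2 and MT-ND6 to STEAP2. Of the 10136 genes, 799 lay within a distance of 0.5 of FOLH1, 784 of STEAP1 and 968 of STEAP2. For DPP4 and PSCA these numbers were 1 and 3. The genes named for FOLH1, STEAP1 and STEAP2 are therefore the nearest of many. The distance is absolute, so a gene with a narrow range has more close neighbours than one with a wide range, and with 4 libraries likeness of this kind describes these libraries only.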

How the data were processed

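RNA was measured in 4 libraries, 1 per cell line, made as stranded mRNA-seq from 100 ng of total RNA per the labels. The authors deposited estimated counts per gene, not scaled between libraries. The submitters' processing notes name STAR, Partek and GRCh38 (hg38) without roles; tool versions, the annotation and whether counting used strand are not given in the sources used here. Of the deposited values 46.2% are not whole numbers, and the lowest sum of a gene over the 4 libraries was 10.

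Estimated counts were rounded. Scaling was by TMM (edgeR 4.0.16, R 4.3.3); the rest was computed in Python 3.11.15, pandas 2.3.3 and SciPy 1.17.1. Totals per library ranged from 19950537 to 26394267. For log2 ratios 0.5 was added to every count, and a gene was analysed where the 2 libraries compared averaged 1 normalized CPM or more. Intervals at the 95% level are Wilson intervals for levels and shares and normal intervals from the counts for log2 ratios; reads are not independent molecules, so they cover counting error only. A count of 0 was read as allowing up to 3 counts. No test was made within a background, where each line has 1 library. Resistant and parental lines were tested over both backgrounds by edgeR's quasi-likelihood test with Benjamini-Hochberg adjustment, with background as a term and genes averaging 1 normalized CPM or more over the 4 libraries; this test was added after seeing the data. Both computations were run on simulated counts with known changes. This checks the code, and the power of the test at the spread of these data is not given here.

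Exon lengths, overlaps and shared stretches came from GENCODE release 29 (GRCh38), which held 94.5% of the listed genes by identifier and all 8 surface targets analysed. Promoter windows came from RefSeq (GRCh38.p14), which held 6 of the 9 surface targets. The entry of the first identifier was used where a list gene had 2. The 9 genes, the lists and the alternatives were chosen with earlier results of these data known. Genes named beside the surface targets were genes of the lists of relatives, Notch genes and other antigens at least 2-fold different between a resistant and a parental line that averaged 10 normalized CPM or more, the highest gene of each list, and the 3 genes closest in pattern; DPP4-DT, FAP, FOLH1B, STEAP1B, STEAP2-AS1, JRK, DPP8, DPP9, STEAP3 and the markers KLK3, KLK2 and TMPRSS2 were named after their values were seen. Some list genes are not reported here and were left out of the list counts. Alternatives were scaling by total counts, DESeq2 1.42.0 size factors or upper quartile factors, a pseudocount of 2, unrounded values, and a minimum mean of 10 or 0.1 normalized CPM.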

Additional observations from a re-analysis of the deposited data

Results flagged for a closer look

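For 3 surface target genes the resistant line lay above its parental line in the LN background and below it in the C4-2B background, with both intervals clear of 0. STEAP1 had a log2 ratio of 0.26 in the LN background and -0.27 in the C4-2B background. STEAP2 had 0.46 and -0.16. For PSCA the values were 0.54 and -0.72. With 1 library per line the difference between backgrounds was not tested against the spread of cultures. Opposite signs, whether or not the intervals were clear of 0, were seen in 42.4% of the 14602 genes analysed in both. The share with both intervals clear of 0 was not computed, so the 3 genes have no background share under the same rule. KLK3, which was low in the LNCaP library alone, had a log2 ratio of 5.66 in the LN background and -0.37 in the C4-2B background, and its part in these values was not tested.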

How the results depend on the processing

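No replicate could be left out at 1 library per line. The test over both backgrounds, added after seeing the data, pairs each resistant line with its parental line by background. It called 0 genes in edgeR with background as a term and 0 without that term, where 363 had an unadjusted p below 0.05, and 78 higher and 86 lower in DESeq2. Without the background term the fitted log2 difference of STEAP1 changed sign, from -0.00606 to 0.0726, and no surface target passed in any of these 3 fits. The log2 ratios of the 8 genes in the 4 comparisons moved by at most 0.0842 under the other scalings, by at most 0.151 with a pseudocount of 2 and by at most 0.0017 without rounding, and none crossed the 2-fold limit under these 5 alternatives. The sign changed for FOLH1 in LN-OlapR against LNCaP, from -0.0001 to 0.009 with DESeq2 size factors and 0.0063 with upper quartile factors, and for DLL3 in the same comparison, from 0.07 to -0.016 with total counts. Some ratios moved beyond their counting intervals. With total counts these were FOLH1, STEAP1, STEAP2, CD276 and CD46 in LN-OlapR against LNCaP. In 2B-OlapR against LN-OlapR they were FOLH1 and STEAP2, with total counts and with upper quartile factors. The 8 differences between backgrounds kept their sign. With a minimum mean of 10 normalized CPM, DPP4 left the LN comparison, so the number of surface targets at least 2-fold lower there was 0 in place of 1. Over all genes that minimum gave 196 higher and 192 lower in LN-OlapR against LNCaP, 163 and 256 in 2B-OlapR against C4-2B, 424 and 348 in C4-2B against LNCaP, and 482 and 558 in 2B-OlapR against LN-OlapR. With a minimum of 0.1 these were 2011 and 1983, 1956 and 2220, 2809 and 2495, and 3019 and 2965. Depth limits DPP4 in LN-OlapR most, with 13 counts.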
